A study of Mus musculus with 18 samples.

Results

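The 10 genes described here encode the core of the Bcl2 family of apoptosis regulators: Bcl2, Mcl1, Bcl2l1, Bax, Bak1, Bcl2l11, Bbc3, Pmaip1, Bid and Bad. They were chosen by symbol as members of the family, from the 24421 gene symbols whose reads were counted, and all 10 symbols were found. Their expression was measured by RNA sequencing of 18 libraries, 3 from each combination of fraction (LT-HSCs, ST-HSCs or bulk-HSCs, sorted from bone marrow) and age, young (2 to 3 months) or aged (23 to 25 months), of Hoxb5-tri-mCherry mice. All groups shared the reporter and a C57BL/6J background, in which mCherry marks cells that express Hoxb5. Bulk-HSCs were the HSCs defined by surface antigens, LT-HSCs were the Hoxb5+ cells among them, and ST-HSCs were the Hoxb5- cells. No cells were treated. The sample descriptions do not say whether replicates came from separate mice, so p-values measure the spread between these samples, which may in part be technical. They also do not say whether fractions with the same replicate number came from the same mice.

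The family decides whether a cell commits to apoptosis at the outer membrane of the mitochondria. The pro-survival proteins Bcl2, Mcl1 and Bcl-xL (encoded by Bcl2l1) hold back the effectors Bax and Bak, which otherwise form pores that release cytochrome c and start the caspase cascade. The BH3-only proteins Bim (Bcl2l11), Puma (Bbc3), Noxa (Pmaip1), Bid and Bad sense stress and either occupy the pro-survival proteins or activate the effectors. Mcl1 is required for the survival of HSCs, and forced expression of Bcl2 is known to enlarge the HSC pool in mice. Much of the control of the family acts on the proteins, which were not measured.

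The libraries held 16495048 to 22973844 gene counts each, and TMM factors lay between 0.951 and 1.03. Levels are given as TMM-normalized CPM, which corrects counts for library size. At these depths 3 counts, taken as the smallest detectable amount, corresponded to 0.132 to 0.176 CPM, a floor that covers counting error only. The libraries differed in how completely they covered expressed genes. Among 9653 abundant genes, those with a median of at least 200 counts, young libraries listed between 1 and 163 at 0 counts and aged libraries between 2 and 6. Young LT-HSCs replicate 3, with 163, and Young ST-HSCs replicate 3, with 160, stood apart. The 8 HSC markers, including Procr, Slamf1 and Kit, summed to 3541 to 4466 CPM in young and 3230 to 3819 CPM in aged libraries. Hoxb5 was at 8.20 CPM or more in all 6 LT-HSC libraries and at 4.56 CPM or less in all 6 ST-HSC libraries, in the order of their labels. The 3 multipotent progenitor markers, Flt3, Cd48 and Cd34, summed to 114 to 339 CPM in young and 63.7 to 149 CPM in aged libraries. The 5 T and NK cell markers summed to 0.227 to 26.2 CPM in young and 22.6 to 137 CPM in aged libraries. Nearly all of that sum in aged libraries was Klrb1c, at 19.0 to 136 CPM, while Cd3e and Cd3g were at 0 in all 18 libraries. The 6 erythroid markers summed to 0 to 7.61 CPM in young and 2.48 to 49.6 CPM in aged libraries, and in bulk-HSCs their sums did not overlap, at 1.91 to 7.61 CPM in young and 18.8 to 49.6 CPM in aged libraries. The 4 megakaryocyte markers summed to 67.5 to 152 CPM in young (median 101) and 102 to 169 CPM in aged libraries (median 142). The part of these markers in the changes with age below was not tested.

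Of the 10 genes, Bcl2 was the only one whose change with age passed the test in the main analysis. Bcl2 rose with age by 1.74-fold in bulk-HSCs and by 1.54-fold on average over the 3 fractions, whereas Mcl1, the most abundant pro-survival gene, did not pass the test, with a mean difference of -0.07 on the log2 scale and a 95% confidence interval from -0.21 to 0.07. The other pro-survival gene, both effectors and the 4 BH3-only genes that could be tested did not pass it either. The 2 fractions LT-HSCs and ST-HSCs gave 0 calls among the members. Pmaip1 was too low to be tested.

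**Figure D1:**
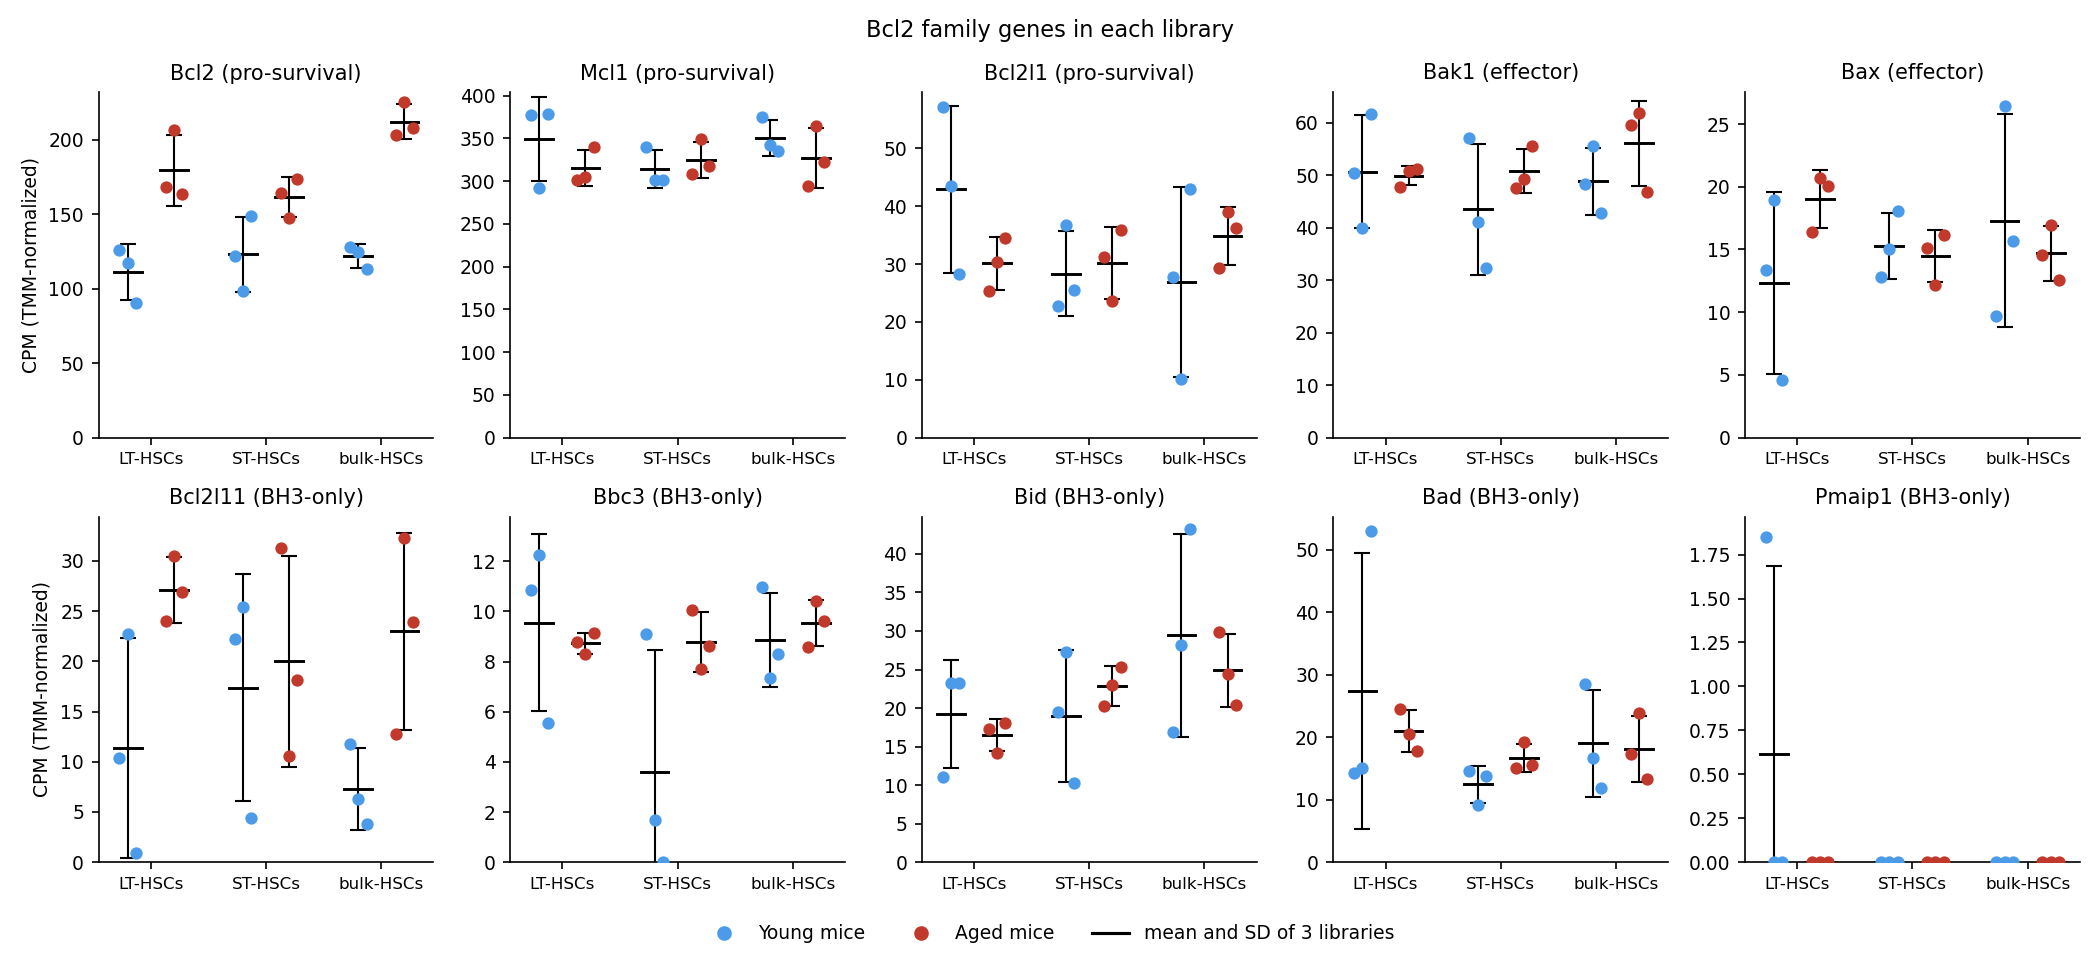
TMM-normalized CPM of the 10 genes in each library (y axes, each starting at 0) in LT-HSCs, ST-HSCs and bulk-HSCs of young (blue) and aged (red) mice, with the mean and SD of 3 libraries in black, where bars that would pass below 0 end there. All 3 aged bulk-HSC libraries lie above all 3 young ones for Bcl2, the young libraries scatter widely for Bax, Bcl2l11, Bid and Bad, and Pmaip1 is above 0 in 1 library.

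Bcl2 lies at chr1:106538178-106714274 on the minus strand of GRCm38 (mm10). In young LT-HSCs it was at 126, 117 and 90.2 CPM in replicates 1, 2 and 3, and in aged LT-HSCs at 168, 207 and 163 CPM. In young ST-HSCs it was at 122, 98.3 and 149 CPM, and in aged ST-HSCs at 164, 147 and 173 CPM. In young bulk-HSCs it was at 128, 125 and 113 CPM, and in aged bulk-HSCs at 203, 225 and 208 CPM. The aged libraries were therefore all above the young ones in LT-HSCs and in bulk-HSCs, while in ST-HSCs Young replicate 3 was above Aged replicate 2. Across all 18 libraries this was the only young library above an aged one.

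In bulk-HSCs the mean was 122 ± 7.74 CPM in young mice and 212 ± 11.6 CPM in aged mice (SD, n = 3), a log2 fold change of 0.80 (SE 0.16, edgeR adjusted p = 0.0113, by the quasi-likelihood test over all genes). In LT-HSCs the means were 111 ± 18.8 and 179 ± 23.8 CPM, a log2 fold change of 0.69 that missed the threshold (SE 0.16, edgeR adjusted p = 0.0664). In ST-HSCs they were 123 ± 25.2 and 161 ± 13.3 CPM, a log2 fold change of 0.39 (SE 0.16, edgeR adjusted p = 0.367). The average of the 3 fractions was 0.63 (SE 0.09, 95% confidence interval 0.44 to 0.82, edgeR adjusted p = 0.000271). Of the 12808 genes tested, 6.75% passed in the averaged comparison (4.34% higher), 1.98% in bulk-HSCs (1.53% higher), 0.445% in LT-HSCs and 0.851% in ST-HSCs, against 1, 1, 0 and 0 of the 9 tested members. By p, Bcl2 ranked 96th of 12808 in the averaged comparison. The rise was not shown to differ between fractions, since the log2 fold change of LT-HSCs exceeded that of ST-HSCs by 0.29 (SE 0.22, edgeR adjusted p = 0.9999) and differed from that of bulk-HSCs by -0.11 (SE 0.22, edgeR adjusted p = 1). For these differences 0% and 0.00781% of all genes passed. Without both libraries that stood apart the averaged change was 0.64 (edgeR adjusted p = 0.000103), with 0.80 for bulk-HSCs (edgeR adjusted p = 0.00189). The age comparisons then called as many members as before. The number of all genes called in bulk-HSCs was then 493 in place of 253. The call in bulk-HSCs was lost without Aged bulk-HSCs replicate 2 (0.75, edgeR adjusted p = 0.0534), where 127 genes in place of 253 were called. One in LT-HSCs was gained without Young ST-HSCs replicate 2 (edgeR adjusted p = 0.0436) or Young ST-HSCs replicate 3 (edgeR adjusted p = 0.0333). In LT-HSCs 56 and 83 genes were called in these fits, in place of 57. Over all fits with a library left out, the adjusted p in LT-HSCs reached 0.292, and without both libraries that stood apart the change was 0.55 (edgeR adjusted p = 0.127). Bcl2 shares exon sequence with an annotated gene on the opposite strand, D630008O14Rik, which is not among the counted symbols, and whether strand was used in counting is not given in the sources used here.

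**Figure D2:**
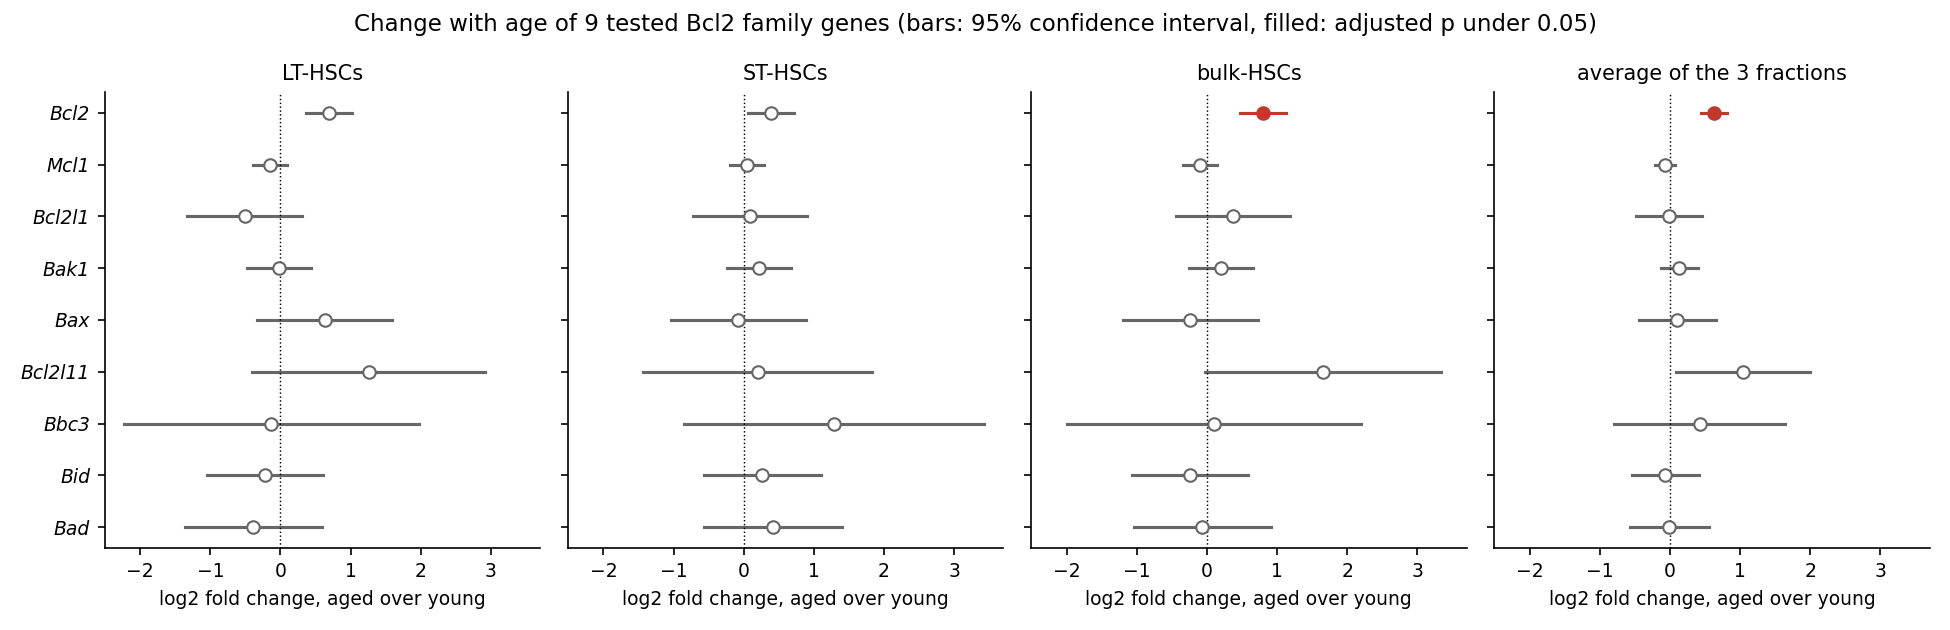
Log2 fold change of aged over young libraries (x axes) for the 9 tested genes in LT-HSCs, ST-HSCs, bulk-HSCs and the average of the 3 fractions, with bars for the 95% confidence interval and filled red points where the adjusted p was under 0.05. Bcl2 is filled in bulk-HSCs (0.80) and in the average (0.63), and the intervals are narrowest for Mcl1, Bcl2 and Bak1.

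Mcl1, at chr3:95658788-95663176 on the plus strand, was the family's most abundant transcript. It was at 378, 292 and 379 CPM in young LT-HSCs and at 302, 305 and 340 CPM in aged LT-HSCs. In young ST-HSCs it was at 340, 301 and 301 CPM and in aged ST-HSCs at 308, 349 and 318 CPM. In young bulk-HSCs it was at 375, 342 and 335 CPM and in aged bulk-HSCs at 294, 364 and 322 CPM. The groups overlapped in every fraction, and the highest library was 1.29 times the lowest in young and 1.24 times in aged mice. The log2 fold change with age was -0.15 in LT-HSCs and -0.10 in bulk-HSCs, and it was 0.05 in ST-HSCs. The interval of the averaged change corresponds to a fold between 0.866 and 1.05.

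The sequences upstream of these 2 genes are shown because Bcl2 and Mcl1 are the pro-survival genes with the highest levels and differ in their change with age. Each is the 250 bases before the RefSeq start site, from GRCm38.p6, read 5′ to 3′ on the gene's strand, with the GC box letters GGGCGG and their reverse complement CCGCCC in capitals. The first lies at chr1:106714291-106714540 on the minus strand and the second at chr3:95658471-95658720 on the plus strand.
Bcl2: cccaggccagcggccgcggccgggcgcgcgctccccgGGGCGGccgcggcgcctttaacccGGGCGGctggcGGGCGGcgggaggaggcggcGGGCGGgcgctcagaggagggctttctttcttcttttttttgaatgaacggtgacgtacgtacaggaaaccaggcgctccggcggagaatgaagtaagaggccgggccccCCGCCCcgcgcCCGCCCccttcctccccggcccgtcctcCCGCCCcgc
Mcl1: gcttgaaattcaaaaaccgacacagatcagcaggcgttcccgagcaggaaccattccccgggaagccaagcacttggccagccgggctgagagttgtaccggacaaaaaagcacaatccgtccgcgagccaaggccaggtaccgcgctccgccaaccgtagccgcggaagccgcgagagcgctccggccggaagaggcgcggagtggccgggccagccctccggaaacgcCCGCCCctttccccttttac
The Bcl2 window held 7 GC box matches and 36 CpG dinucleotides at 74.8% GC, and the Mcl1 window held 1 match and 26 CpG dinucleotides at 64.4% GC. Neither window held the TATA box letters TATAAA, the CCAAT box letters CCAAT or the E-box letters CACGTG on either strand. RefSeq windows were used for 9 members and not for Pmaip1. Of their 15 windows 10 held a GC box, compared with 32.7% of 32851 mouse promoter windows of the same length. Some of the 15 belong to the same gene, and those of Bbc3 partly overlap. GC content, which reached 81.6% in a Bbc3 window, was not matched in this comparison. The TATA box was in 0 of the 15 windows, the CCAAT box in 4 and the E-box in 2, and they were in 12.4%, 33.8% and 6.02% of all promoter windows. No readout of these libraries bears on factor binding, and a match is only a description of the letters.

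Bcl2l1, at chr2:152780668-152831728 on the minus strand, encodes Bcl-xL, which supports erythroid cells and platelets. It was at 57.1, 43.5 and 28.3 CPM in young LT-HSCs and at 25.4, 30.4 and 34.5 CPM in aged LT-HSCs. In young ST-HSCs it was at 22.8, 36.7 and 25.5 CPM, and in aged ST-HSCs at 31.2, 23.6 and 35.8 CPM. In young bulk-HSCs it was at 27.7, 10.1 and 43.0 CPM, and in aged bulk-HSCs at 29.3, 39.0 and 36.2 CPM. The aged values lay within the range of the young ones in ST-HSCs and in bulk-HSCs, and the averaged log2 fold change was -0.02 (95% confidence interval -0.49 to 0.45).

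The effectors differed in how evenly they were detected. Bak1, at chr17:27019810-27029009 on the minus strand, was at 32.2 to 61.6 CPM in young libraries (median 48.3) and at 46.8 to 61.8 CPM in aged libraries (median 50.9). Its averaged log2 fold change was 0.13 (95% confidence interval -0.13 to 0.40). Bax, at chr7:45461697-45466898 on the minus strand, was at 13.4, 19.0 and 4.57 CPM in young LT-HSCs and at 16.4, 20.7 and 20.0 CPM in aged LT-HSCs. It was at 12.8, 14.999 and 18.05 CPM in young ST-HSCs and at 15.1, 12.2 and 16.2 CPM in aged ST-HSCs. It was at 9.74, 26.5 and 15.6 CPM in young bulk-HSCs and at 14.6, 16.9 and 12.5 CPM in aged bulk-HSCs. The lowest Bax value came from Young LT-HSCs replicate 3, and young and aged libraries overlapped in each fraction. The averaged change of Bax was 0.11 (95% confidence interval -0.45 to 0.66). Exons of Bak1 overlap those of Ggnbp1 on the opposite strand, which was at 0 to 12.4 CPM, and exons of Bax overlap those of Gm45808 on the same strand, which is not among the counted symbols.

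Bcl2l11 had the largest fitted rise with age on average among the members, and it did not pass the test. The gene lies at chr2:128126038-128162547 on the plus strand and encodes Bim, a BH3-only protein that binds all the pro-survival members. It was at 10.4, 22.7 and 0.879 CPM in young LT-HSCs and at 23.996, 30.5 and 26.9 CPM in aged LT-HSCs. In young ST-HSCs it was at 22.2, 25.4 and 4.43 CPM and in aged ST-HSCs at 31.2, 10.6 and 18.2 CPM. In young bulk-HSCs it was at 11.8, 6.31 and 3.83 CPM and in aged bulk-HSCs at 12.8, 32.3 and 23.9 CPM. Aged libraries were all above young ones in LT-HSCs and in bulk-HSCs, and overlapped with them in ST-HSCs. The averaged log2 fold change was 1.04 (SE 0.45, 95% confidence interval 0.08 to 1.99, edgeR unadjusted p = 0.0347, adjusted p = 0.208). By fraction it was 1.65 (SE 0.80) in bulk-HSCs, 1.26 (SE 0.79) in LT-HSCs and 0.20 (SE 0.78) in ST-HSCs. The 2 lowest values in the LT-HSC and ST-HSC fractions came from the libraries that stood apart, and without them the averaged change was 0.71 (edgeR adjusted p = 0.189) and that in ST-HSCs -0.24.

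The 2 genes with no overlap between ages, Bcl2 and Bcl2l11, were the same in LT-HSCs and in bulk-HSCs. No overlap in the higher direction held for 10.2% of all tested genes in LT-HSCs and 13.4% in bulk-HSCs, against 2 of 9 members in each. In ST-HSCs it held for 1 of 9 members, Bad, and 10.2% of all genes.

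Bbc3, at chr7:16308393-16318205 on the plus strand, encodes Puma, which p53 induces after DNA damage. It was at 10.8, 12.2 and 5.56 CPM in young LT-HSCs and at 10.97, 7.35 and 8.31 CPM in young bulk-HSCs. In young ST-HSCs it was at 9.11, 1.68 and 0 CPM. Aged libraries were uniform, at 7.69 to 10.4 CPM in all 9. The averaged log2 fold change was 0.42 (95% confidence interval -0.79 to 1.63), and the low values were those of Young ST-HSCs replicates 2 and 3. It was 1.11 without Young ST-HSCs replicate 1, 0.23 without Young ST-HSCs replicate 3 and 0.14 without both libraries that stood apart. Replicate 3 was also among the libraries with many abundant genes at 0.

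Bid, at chr6:120891930-120916853 on the minus strand, encodes the protein that caspase-8 cleaves to link death receptors to the mitochondria. It was at 11.1, 23.3 and 23.3 CPM in young LT-HSCs and at 17.3, 14.2 and 18.1 CPM in aged LT-HSCs. It was at 19.5, 27.2 and 10.2 CPM in young ST-HSCs and at 20.2, 23.02 and 25.3 CPM in aged ST-HSCs. It was at 16.96, 28.1 and 43.2 CPM in young bulk-HSCs and at 29.8, 24.4 and 20.5 CPM in aged bulk-HSCs. Young and aged values overlapped in each fraction, and the averaged log2 fold change was -0.06 (95% confidence interval -0.54 to 0.41).

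Bad, at chr19:6941861-6951899 on the plus strand, encodes a protein that growth factor signalling holds inactive by phosphorylation. It was at 14.3, 15.03 and 53.0 CPM in young LT-HSCs and at 24.5, 20.5 and 17.8 CPM in aged LT-HSCs. It was at 14.5, 9.11 and 13.8 CPM in young ST-HSCs and at 15.1, 19.2 and 15.6 CPM in aged ST-HSCs. It was at 28.5, 16.7 and 11.8 CPM in young bulk-HSCs and at 17.3, 23.9 and 13.4 CPM in aged bulk-HSCs. The value of 53.0 CPM in Young LT-HSCs replicate 3 was the highest of the 18. The averaged log2 fold change was -0.01 (95% confidence interval -0.58 to 0.55), and without the libraries that stood apart it was 0.31. Exons of Bad overlap those of Gpr137 on the opposite strand, which was at 5.96 to 26.5 CPM.

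Pmaip1 lies on chr18 at 66458533 to 66465565 on the plus strand and encodes Noxa, a BH3-only protein that binds Mcl1. It had 34 counts, 1.85 CPM, in Young LT-HSCs replicate 1 and 0 counts in the other 17 libraries. By counting error alone, a count of 0 allows up to 0.176 CPM at the shallowest library. Young libraries listed up to 163 abundant genes at 0 counts, so in them a 0 does not set this limit. The 9 aged libraries, in which few abundant genes were at 0, all had 0 counts of Pmaip1.

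Compared per kilobase of the longest annotated coding transcript, Mcl1 stood well above the others, at a median of 96.1 CPM per kb over the 18 libraries. It was above Bak1, the next gene, in 18 of 18 libraries. Bak1 was at 20.9 and Bcl2 at 20.6 CPM per kb, and each was above the other in 9 of 18 libraries. Their order followed age: Bak1 was above Bcl2 in 8 of 9 young libraries, and Bcl2 was above Bak1 in 8 of 9 aged libraries. Then came Bax at 13.99, Bcl2l1 at 12, Bad at 10.5 and Bid at 9.93 CPM per kb. Bcl2 was above Bax in 16 of 18 libraries, but Bax was above Bcl2l1 in 12, Bcl2l1 above Bad in 10 and Bad above Bid in 11, so these 4 were not separated beyond their spread. Bbc3 at 4.80 and Bcl2l11 at 4.01 CPM per kb were lower, with Bid above Bbc3 in 17 of 18 libraries and Bbc3 above Bcl2l11 in 12. With the mean length of the coding transcripts the levels were higher and came in the same order.

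**Figure D3:**
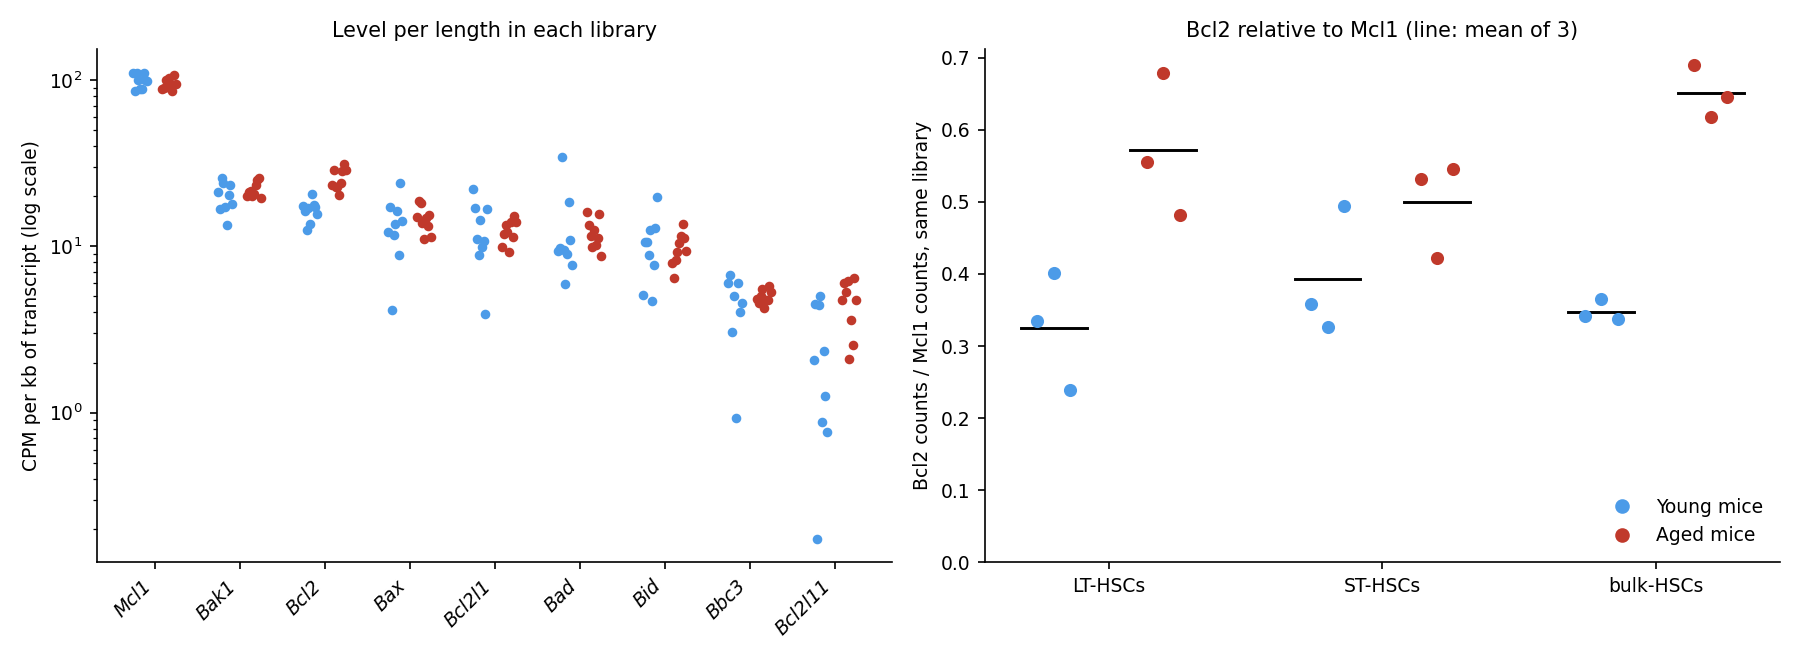
Left, CPM per kb of the longest coding transcript (log scale) of 9 genes in each young (blue) and aged (red) library with a count, ordered by median. Right, Bcl2 counts divided by Mcl1 counts of the same library, with the mean of 3 libraries as a line, from 0.238 to 0.494 in young and from 0.422 to 0.690 in aged libraries.

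Because Mcl1 did not pass the test while Bcl2 rose, the 2 were set against each other within each library, where library scaling cancels. Bcl2 counts were 0.334, 0.402 and 0.238 times Mcl1 counts in young LT-HSCs and 0.556, 0.678 and 0.481 times in aged LT-HSCs. They were 0.358, 0.326 and 0.494 times in young ST-HSCs and 0.531, 0.422 and 0.545 times in aged ST-HSCs. They were 0.341, 0.365 and 0.337 times in young bulk-HSCs and 0.690, 0.618 and 0.646 times in aged bulk-HSCs. Aged libraries were above all young ones in LT-HSCs and bulk-HSCs, and overlapped with them in ST-HSCs. The groups are those of the Bcl2 test, so the ratio adds the scale and not further evidence of the rise.

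Summed per length, the 3 pro-survival genes were 2.56 to 4.75 times the 2 effectors in young libraries (median 3.97) and 3.23 to 4.43 times in aged libraries (median 3.48). They were 2.77 to 8.16 times the 5 BH3-only genes in young (median 4.17) and 3.63 to 4.88 times in aged libraries (median 4.25). These ranges overlapped, and Mcl1 made up most of the pro-survival sum. The sums are of transcripts and weigh each gene by its level only.

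No member passed the test between LT-HSCs and ST-HSCs at either age. In young mice 0 of 9 members passed the edgeR test, beside 0.429% of all genes. In aged mice 0 of 9 passed, beside 0.00781% of all genes. Averaged over ages 0 of 9 passed, beside 0.812% of all genes. The member with the smallest p averaged over ages and in young mice was Bad. By p it ranked only 1069th of 12808 tested genes averaged over ages and 892nd in young mice. Its log2 differences were 0.73 higher in LT-HSCs averaged over ages (SE 0.33, edgeR adjusted p = 0.478) and 1.13 in young mice (SE 0.47, edgeR adjusted p = 0.387). Without Young LT-HSCs and Young ST-HSCs replicate 3 these were 0.31 and 0.31, with 0 members called in each comparison between fractions. The number of all genes called was then 30 in place of 55 between LT-HSCs and ST-HSCs in young mice. For Bcl2 the averaged difference was 0.00 (95% confidence interval -0.23 to 0.24), and for Mcl1 0.05 (95% confidence interval -0.12 to 0.23), the narrowest interval among the members. Within aged mice all 3 LT-HSC libraries were above all 3 ST-HSC libraries for Bax and below them for Bid, and 8.67% and 6.34% of all genes did the same in those directions. For Bid these were 14.2 to 18.1 CPM against 20.2 to 25.3 CPM, a log2 difference of -0.47 (SE 0.40, edgeR adjusted p = 1). The comparisons with bulk-HSCs, which hold both fractions, gave 0 calls among the members at either age, with 0.273% of all genes called between LT-HSCs and bulk-HSCs and 0.164% between ST-HSCs and bulk-HSCs in young mice, and 0% for both in aged mice. Without the libraries that stood apart, 95 genes in place of 35 were called between LT-HSCs and bulk-HSCs and 38 in place of 21 between ST-HSCs and bulk-HSCs in young mice. In these 4 comparisons the smallest p among the members was that of Bcl2 between aged ST-HSCs and aged bulk-HSCs. Bcl2 was at 147 to 173 CPM in aged ST-HSCs and 203 to 225 CPM in aged bulk-HSCs, a log2 difference of -0.39 (95% confidence interval -0.72 to -0.06, edgeR unadjusted p = 0.0220, adjusted p = 1). By p Bcl2 ranked 159th of 12808 tested genes there. Its libraries did not overlap, which held in that direction for 7.51% of all genes. All 9 tested members were below 0 in this comparison, from -0.39 for Bcl2 to -0.008 for Mcl1, with a median of -0.13 beside -0.01 over all genes. The share of all genes below 0 is not given here, and the members were measured in the same libraries. Bid in aged LT-HSCs was likewise below all aged bulk-HSC libraries, as were 7.36% of all genes.

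Libraries of one group lay closer together in aged than in young mice. The SD of log2 CPM within groups was wider in young mice for 9 of 9 members, and for 85% of all tested genes. Its median over the members was 0.714 in young and 0.204 in aged mice, and over all tested genes 0.515 and 0.296. Mcl1 was the least variable member in both, at 0.146 and 0.117. Bcl2 followed in young mice at 0.233. Bax varied 5.79-fold from lowest to highest in young and 1.699-fold in aged libraries, Bcl2l1 5.65-fold and 1.65-fold, Bad 5.81-fold and 1.83-fold, and Bcl2l11 28.9-fold and 3.06-fold. The number of abundant genes at 0 was also larger in most young libraries, and its part in this spread was not tested.

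The members whose group levels differed most were Bcl2l11 and Bbc3, whose 6 group means of log2 CPM spanned 2.17 and 3.71. The genes with the most similar centred pattern of the 6 means were Nup210l, Rimbp3 and Helq for Bcl2l11, with root mean square differences of 0.11, 0.14 and 0.20 on the log2 scale. For Bbc3, Noa1 and Ccdc60 had differences of 0.11 and 0.13. Without both libraries that stood apart the spans were 2.03 and 1.55, and 0 of the 3 nearest genes of either member were still among its nearest 3. By likeness to Bcl2l11, Nup210l, Rimbp3 and Helq then ranked 10689th, 9724th and 5407th. For Bbc3, Noa1 then ranked 2384th, while Ccdc60 ranked 30th with a difference of 0.22. The likeness of the named genes other than Ccdc60 therefore rests on the libraries that stood apart. The span of 3.71 includes the 0 counts of Bbc3 in Young ST-HSCs replicate 3.

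Of 16 other genes of the Bcl2 family, 7 were expressed highly enough to be tested. In the averaged age comparison 1 of the 7 passed, beside 6.75% of all genes. Bcl2l13, a mitochondrial relative of the family, fell with age, with a log2 fold change of -0.45 on average (SE 0.11, edgeR adjusted p = 0.0200). It was at 62.1 to 93.2 CPM in young and 40.7 to 69.1 CPM in aged libraries. The median change of the 7 was -0.13, beside 0.04 over all tested genes, and 2 of the 7 were above 0. Exons of Bcl2l13 and Bid overlap on opposite strands. Among the genes not tested, Bcl2a1a, Bcl2a1c, Bcl2l10 and Hrk had 0 counts in all 18 libraries, and Bcl2a1d had a count in 3.

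Downstream of the mitochondria, 17 of 17 genes of the caspase cascade were tested and 2 rose with age on average, Xiap and Apaf1. Of all tested genes 6.75% passed in that comparison, and 4.34% of all tested genes passed as higher with age. Apaf1 builds the apoptosome, on which caspase-9 is activated, and Xiap inhibits caspases 3, 7 and 9. Xiap was at 53.7 to 171 CPM in young (median 83.8) and 145 to 208 CPM in aged libraries (median 178), a log2 fold change of 0.87 (SE 0.15, edgeR adjusted p = 0.00182). It also passed in bulk-HSCs, as did 1.98% of all genes, at 1.08 (SE 0.27, edgeR adjusted p = 0.0450). That call was lost in 12 of 18 fits with a library left out (edgeR adjusted p from 0.0221 to 0.155). Apaf1 was at 30.7 to 68.6 CPM in young and 47.8 to 85.1 CPM in aged libraries, a log2 fold change of 0.53 (SE 0.14, edgeR adjusted p = 0.0319), a call lost in 11 of 18 such fits (edgeR adjusted p from 0.0157 to 0.0761). The young and aged ranges overlapped for both genes. The median over the 17 genes was 0.04, equal to that over all tested genes at 2 decimals, and 9 were above 0.

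Of the 10 genes of the death receptor pathway, all 10 were tested. In the averaged comparison 0 passed, beside 6.75% of all genes. DESeq2 called 1, and its share of all genes is not given here. The 2 genes with the smallest p in edgeR were Tnfrsf1b, a TNF receptor, at 0.19 (SE 0.08, edgeR adjusted p = 0.153), and Fadd, the adaptor of death receptors, at -0.35 (SE 0.15, edgeR adjusted p = 0.193). By p they ranked only 1735th and 2030th of the 12808 genes tested. Fas, the gene with the third smallest p of this list, had counts in 2 of 9 young libraries. It was at 5.97 CPM in Young LT-HSCs replicate 3 and 1.82 CPM in Young bulk-HSCs replicate 2. It had counts in 8 of 9 aged libraries, at up to 4.96 CPM.

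Of 19 genes that regulate the family or its proteins, 18 were tested. In the averaged comparison 6.75% of all genes passed, and among the 18 there was 1, which fell with age. This was Foxo3, a transcription factor that maintains quiescent HSCs and can activate Bcl2l11 and Bbc3, at 129 to 188 CPM in young and 124 to 149 CPM in aged libraries. Its log2 fold change was -0.29 (SE 0.08, edgeR adjusted p = 0.0304), and the call was lost in 8 of 18 fits with a library left out (edgeR adjusted p from 0.00958 to 0.0670). Huwe1, a ubiquitin ligase of Mcl1, fell in ST-HSCs by 0.33 on the log2 scale (SE 0.07, edgeR adjusted p = 0.0425), from 1002 ± 30.3 to 795 ± 31.2 CPM (SD, n = 3). In ST-HSCs 0.851% of all genes passed. The call of Huwe1 was lost in 11 of 18 such fits (edgeR adjusted p from 0.0374 to 0.176), and its change was -0.07 in LT-HSCs and 0.07 in bulk-HSCs. Foxo1 was higher in LT-HSCs than in ST-HSCs, averaged over ages, by 0.70 (SE 0.13, edgeR adjusted p = 0.0173), at 75.9 to 113 CPM against 37.3 to 73.6 CPM. Between these fractions 0.812% of all genes passed. All 6 LT-HSC libraries were above all 6 ST-HSC libraries for Foxo1. These are the values of the test, so this adds no further evidence, and the share of all genes that did so is not given here. The call was lost without Aged LT-HSCs replicate 3 (edgeR adjusted p = 0.0555) and without Aged ST-HSCs replicate 3 (edgeR adjusted p = 0.0601).

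**Figure D4:**
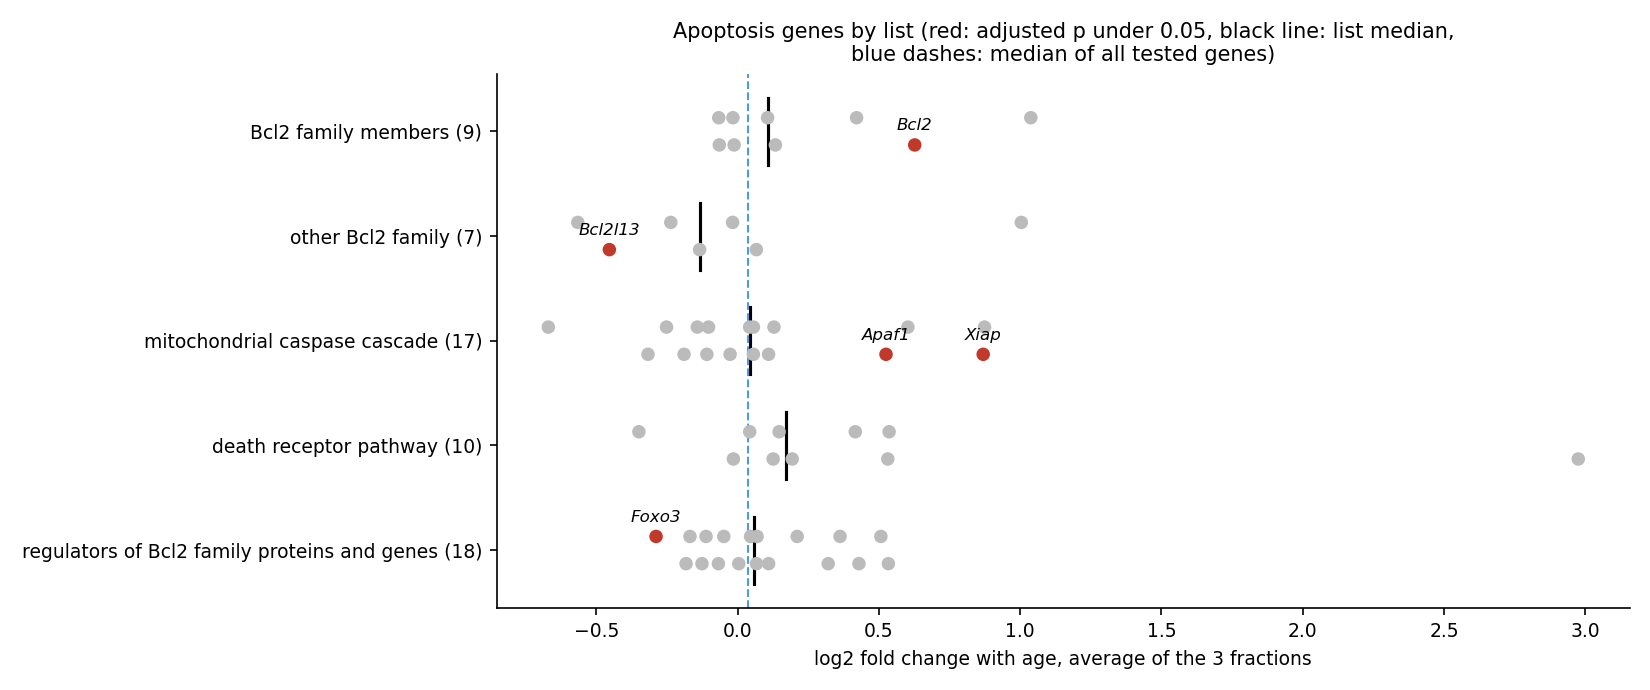
Log2 fold change with age averaged over the 3 fractions (x axis) for the 9 tested members and 4 lists of apoptosis genes, with the number of tested genes in parentheses, red points where the adjusted p was under 0.05, a black line for each list's median and blue dashes for the median of all tested genes at 0.04. Bcl2, Xiap and Apaf1 lie above 0 and Bcl2l13 and Foxo3 below, and the grey point at 2.98 is Fas.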

How the data were processed

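RNA was sequenced by the authors from sorted LT-HSCs, ST-HSCs and bulk-HSCs of young and aged Hoxb5-tri-mCherry mice, in 18 libraries depleted of ribosomal RNA. The authors mapped reads to mm10 by HISAT2, with StringTie 1.3.4d for quantification, and SAMtools 1.7 is named in the submitters' processing notes. The authors deposited raw counts per gene symbol, with 3 libraries per group. All 18 columns were used, and libraries were assigned to groups from the sample titles, with ages as stated by the study.

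Counts were analysed with edgeR 4.0.16 in R 4.3.3. Counts were TMM-normalized, and 12808 genes whose mean was 1 CPM or more entered one quasi-likelihood fit of the 6 group means, with 12 residual degrees of freedom. Ages were compared per fraction and on average, fractions were compared per age, and age effects were compared between fractions. A gene was called at an adjusted p under 0.05 (Benjamini-Hochberg, over all tested genes). SE was the log2 fold change divided by the square root of F. The spread within groups and the group means used log2 CPM with a prior of 0.5 counts. Coordinates and transcript lengths came from GENCODE M21, and promoter sequences from RefSeq. Figures were drawn with matplotlib.

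The members and gene lists were chosen with earlier results of these data known. All members are described. A gene of a list is named if it passed in an age comparison or between LT-HSCs and ST-HSCs, or else if it has one of the 3 smallest p of its list in the averaged age comparison. Nearest genes are given for members whose group means span at least 1 on the log2 scale, as the 3 with the smallest root mean square difference, of which 1 is not reported here.

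Alternatives were other size factors and filters, DESeq2 1.42.0, limma-voom with limma 3.58.1, a replicate block and the count of detected genes as a covariate. That count was taken minus the mean of the library's age. Further alternatives were only the groups compared, each library left out, and the mean transcript length. Leaving out both libraries with many abundant genes at 0 was added after seeing the data. The main edgeR fit, DESeq2 and limma-voom with quality weights were also run on simulated data. The comparisons run there were the change with age in LT-HSCs, in ST-HSCs and on average, and the difference in age effect between LT-HSCs and ST-HSCs. The other comparisons, among them age in bulk-HSCs, and the other settings were not simulated.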

Additional observations from a re-analysis of the deposited data

How the results depend on the processing

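The averaged rise of Bcl2 with age kept its direction and its call in all 29 alternatives, with log2 fold changes from 0.58 to 0.68 and adjusted p from 3.3e-09 to 0.00099. Of 389 recomputed counts of members called, 383 were the same as in the main analysis. For the change with age in LT-HSCs the count was 1 in place of 0, for Bcl2, in 2 settings. These were at least 10 counts required in every library (edgeR adjusted p = 0.045) and DESeq2 (adjusted p = 0.0032). Of all genes, 82 and 290 were called in these 2 settings, in place of 57. The count of members ranged from 0 to 1 when a library was left out. For the change with age in bulk-HSCs it also ranged from 0 to 1 when a library was left out. For the change with age averaged over the fractions it was 2 in place of 1 with a covariate for the number of detected genes. There Bcl2l11 was also called (1.38, edgeR adjusted p = 0.0138), and the number of all genes called was 1184 in place of 864. The covariate was each library's number minus the mean of its age, so a difference in detected genes between ages was not adjusted for. The causes were not tested.

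Members whose change was not called also changed sign. Bcl2l11 in ST-HSCs, at 0.20, was -0.15 with limma-voom quality weights, -0.24 without both libraries that stood apart, and between -0.27 and 0.58 when a library was left out. Averaged over the fractions, Bcl2l1 was 0.064 with quality weights, 0.071 with the replicate number as a random effect, and from -0.15 to 0.15 when a library was left out. Bad was 0.26 with quality weights, 0.0091 with the replicate block, 0.15 with the random effect, 0.031 with the covariate, 0.31 without both libraries, and from -0.12 to 0.29 when a library was left out. Leaving out a library gave -0.025 to 0.26 for Bax and -0.16 to 0.063 for Bid. The difference of the Bcl2 age effect between LT-HSCs and ST-HSCs was -0.015 without both libraries and 0.12 to 0.43 when a library was left out.

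The number called among regulators of the family was 1 in the averaged comparison, 2 with the replicate block, with the random effect and with the covariate, 3 with DESeq2, quality weights and without both libraries, and 0 to 2 when a library was left out. In the caspase cascade it ranged from 1 to 2. In the death receptor pathway DESeq2 called 1. Of all genes, 864 were called in the main averaged comparison, 1184 with the covariate and 942 without both libraries. The number for the other settings is not given here. Whether the counts of these lists moved only with the number of all genes called was not tested. Levels per length rose for all 9 detected members with the mean transcript length, for Mcl1 from 96.1 to 154 CPM per kb. Bbc3 was not tested with at least 10 counts required in every library, and the averaged comparison uses all groups, so a fit on only the groups compared was not run for it.

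Deviations of same-numbered libraries correlated by over 0.1 in 2 of 18 pairs, and the main fit did not pair the samples. Both pairs were LT-HSCs with ST-HSCs of young mice, at 0.184 in replicate 2 and 0.147 in replicate 3. These correlations do not settle whether LT-HSCs and ST-HSCs were paired. The replicate block moved 0 counts of members called and ended 1 call, that of Huwe1 in ST-HSCs (adjusted p = 0.0575). With 3 libraries per group, members with a wide spread, such as Bbc3 with an SE up to 1.01 in a single fraction, could differ by 2-fold or more without passing.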
